A study of Mus musculus with 8 samples.

Results

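Of the enzymes that build cholesterol from acetyl-CoA, 8 were followed in testes of 2 genotypes, wild type and VRK1-deficient: Hmgcs1, Idi1, Fdps, Fdft1, Sqle, Lss, Cyp51 and Dhcr7. They were taken from the arrays by name, as every non-control probe whose gene name is one of the 8, which gave 18 of the 41174 probes and 8 of 27670 gene names. All 18 were well above background on enough arrays to be tested, beside 26962 tested probes in all, and 17 of the 18 were so on all 8 arrays. RNA came from whole testes at postnatal day 8, and 4 biological replicates of each genotype were hybridized to 1-color Agilent arrays, 1 array per replicate.

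The wild type group carried intact Vrk1, the gene of a nuclear kinase needed for proliferation of spermatogonia. The VRK1-deficient group carried a gene trap, a β-geo insertion in an intron of Vrk1, on a C57BL/6 background. This allele comes from 1 embryonic stem cell clone (RRR178) and is a hypomorph, so some full-length VRK1 remains, and every cell of the animal carries it. No strain is given for the wild type animals in the labels. No treatment is given for either genotype.

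Cholesterol is made in the cytoplasm and endoplasmic reticulum by a linear chain of enzymes. The early steps turn acetyl units into mevalonate and then into isoprenoids, the middle steps join isoprenoids into squalene, and the late steps fold squalene into lanosterol and trim it to cholesterol. The genes of the chain share a regulator, the transcription factor SREBP2, which is released when membrane sterol is low and binds sterol regulatory elements in their promoters. In the testis, Leydig cells use cholesterol for testosterone, and sterol intermediates formed around CYP51 occur in germ cells.

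None of the 8 enzymes passed the test between genotypes. With limma, 0 of 18 probes had an adjusted p under 0.05, against 3.66% of all tested probes. At an unadjusted limma p under 0.05 the count was 3 of 18 probes, for Hmgcs1, Fdps and Dhcr7, against 28.8% of all tested probes. The brightest probe of each gene, its main probe here, was higher in VRK1-deficient testes for 5 genes and lower for 3, with a median log2 change of 0.08, where the median over all tested genes was 0.04. For all 8 main probes the 95% interval of the change lay within 1 log2 unit of 0. Among main probes the largest changes were those of Hmgcs1, an early enzyme, at 0.45 and of Dhcr7, at the last step, at -0.34, and second probes of Fdps and Idi1 changed more, by -0.86 and -0.57. By the methods' t-test on the same values, 2 of the 8 main probes (Hmgcs1 and Dhcr7) had an unadjusted p of at most 0.05, against 26.2% of all tested probes.

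**Figure D1:**
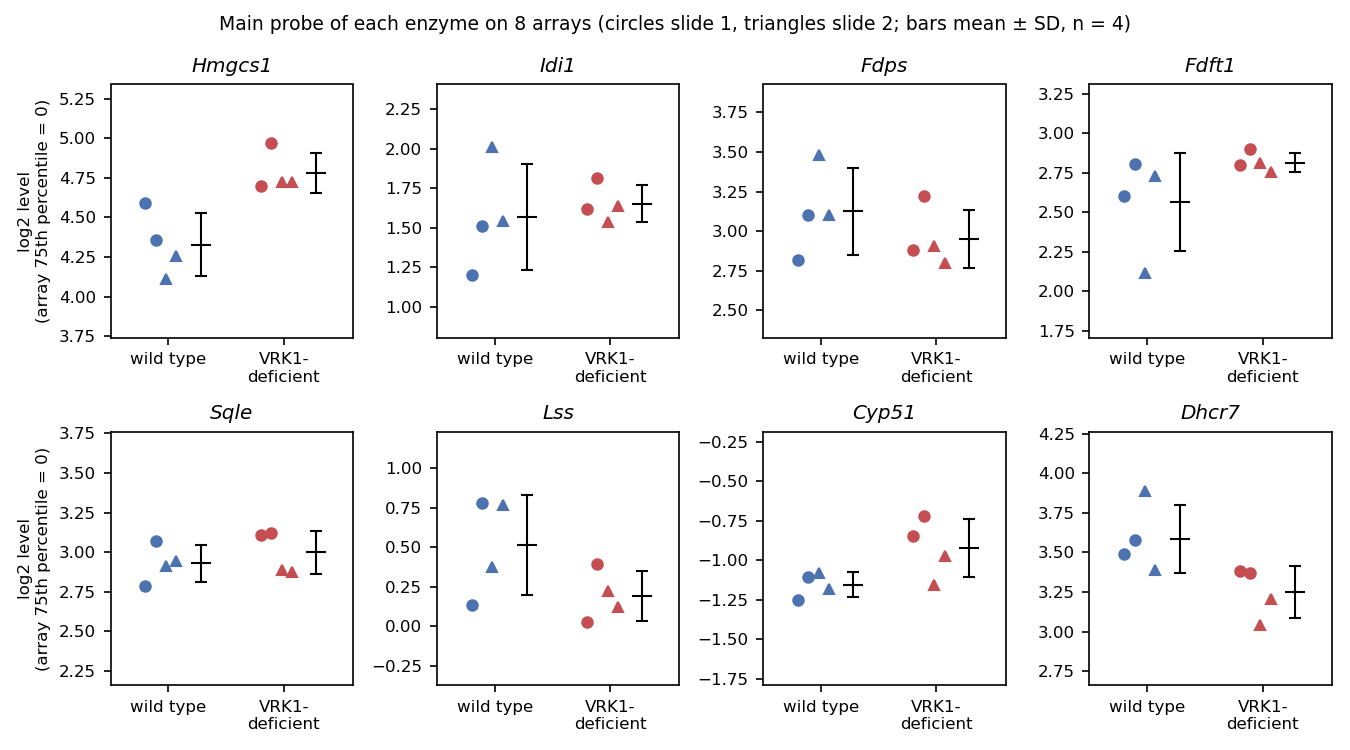
The log2 level of the main probe of each enzyme on each of the 8 arrays, relative to the 75th percentile of that array, with circles for slide 1, triangles for slide 2, and the mean ± SD of each genotype (n = 4). Every panel spans the same number of log2 units. All VRK1-deficient arrays lie above the wild type arrays for Hmgcs1 (4.70 to 4.97 against 4.11 to 4.59) and below them for Dhcr7 (3.04 to 3.38 against 3.39 to 3.89), and the genotypes overlap for the other 6 enzymes.

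Levels below are log2 processed signals minus the log2 of the 75th percentile of the same array, so a level of 0 is that percentile, and a change is the VRK1-deficient mean minus the wild type mean. A level compares arrays for 1 probe and says nothing of the amount of one gene against another. In whole tissue, fewer cells of a type and less RNA per cell cannot be told apart. Replicates 1 and 2 of each genotype shared slide 1, and replicates 3 and 4 shared slide 2. On both slides wild type took array positions 1 and 2 and VRK1-deficient positions 3 and 4, so position and genotype cannot be told apart. Wild type replicate 1 stood apart: over 26955 probes its correlation was 0.987 to 0.990 with the VRK1-deficient arrays and 0.970 to 0.986 with the other wild type arrays. The main probe of Vrk1 itself was at 0.16 ± 0.38 in wild type and -3.85 ± 0.27 in VRK1-deficient testes (SD, n = 4), a change of -4.00 with a limma adjusted p of 1.35e-04.

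Hmgcs1 encodes the cytoplasmic HMG-CoA synthase, an early enzyme that condenses acetyl units on the way to mevalonate. On its main probe (A_51_P146941) the wild type levels were 4.59, 4.36, 4.11 and 4.26 for replicates 1 to 4, and the VRK1-deficient levels were 4.70, 4.97, 4.72 and 4.73. Every VRK1-deficient array was above every wild type array, and wild type replicate 1 was the nearest to them. The means were 4.33 ± 0.20 and 4.78 ± 0.13 (SD, n = 4), a change of 0.45 with a standard error of 0.13, or 1.37-fold with a 95% interval of 1.11 to 1.68. The limma adjusted p was 0.0750, and the exact two-sided permutation p was 0.0286, the smallest that 4 against 4 arrays can give. Of all tested probes, 9.39% had every VRK1-deficient array higher, and of the 18 probes 1 did. By slide, the change was 0.36 on slide 1 and 0.54 on slide 2. Without wild type replicate 1 the change was 0.54 (limma adjusted p = 0.0139), in a comparison where 28.4% of all tested probes passed the threshold.

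The second Hmgcs1 probe on the same transcript (A_52_P388072) pointed the other way. Its levels were -2.91, -2.18, -1.55 and -2.00 on the wild type arrays and -2.43, -2.50, -2.77 and -2.67 on the VRK1-deficient arrays. Wild type replicate 1 was the lowest of all 8, and the other wild type arrays were above every VRK1-deficient array. This probe changed by -0.43 with a standard error of 0.25 (limma adjusted p = 0.287), and by -0.68 without wild type replicate 1 (limma adjusted p = 0.0206). The other probe, A_52_P119039, carries a separate cDNA (AK078743), was dim and varied from -5.39 to -2.46 in wild type, and its change was 0.20 (limma adjusted p = 0.813). With the 3 probes averaged, Hmgcs1 changed by 0.07 (limma adjusted p = 0.771). The array files place the first of these probes on unplaced sequence of build mm7, at Un_random from 9357630 to 9357689, and the second at 9360490 to 9360549, both on the minus strand. No exon or UTR is given there.

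The first 30 bases of each are shown because these 2 probes of 1 transcript gave opposite signs, and they are written in lower case with no base marked.
Hmgcs1 A_51_P146941: tatgttttgaaaagagtaattttaacgttt
Hmgcs1 A_52_P388072: tgcccttgataaaataacagcaagtttatg

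A sterol regulatory element was searched for in the promoters by 2 fixed patterns of letters. Promoters were read from RefSeq windows of build GRCm38.p6, which hold 5 of the 8 enzymes (Hmgcs1, Idi1, Lss, Cyp51 and Dhcr7) and do not list Fdps, Fdft1 and Sqle. The letters TCACNCCAC, searched on both strands, occurred in 1 of these 5, Hmgcs1, and in 1.44% of the 27025 genes with a window (1.24% of all 32851 windows). The match began 137 bases before the start of transcription. A related form, TCACNCGAC, was in 0 of the 5 and in 0.366% of genes (0.31% of all windows). The NF-Y box CCAAT was in all 5, against 41.1% of the 27025 genes with a window, and so was the GC box GGGCGG, against 38.2%. The core of the cAMP response element, TGACG, was in 2 of the 5, Hmgcs1 and Cyp51, against 23% of genes. Of the 11 other cholesterol enzymes with a window, 0 held TCACNCCAC, 10 held CCAAT and 10 held GGGCGG. These are matches of letters only, other forms of the element were not searched, and no binding was measured.

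The promoter sequences of Hmgcs1 and Dhcr7 are shown because these were the enzymes whose genotypes did not overlap, in opposite directions. Each is the 250 bases before the start on the plus strand of GRCm38.p6, chr13:119690101-119690350 for Hmgcs1 and chr7:143829964-143830213 for 1 of 3 Dhcr7 windows, with capitals on the match to TCACNCCAC and on CCAAT or its reverse complement ATTGG.
Hmgcs1: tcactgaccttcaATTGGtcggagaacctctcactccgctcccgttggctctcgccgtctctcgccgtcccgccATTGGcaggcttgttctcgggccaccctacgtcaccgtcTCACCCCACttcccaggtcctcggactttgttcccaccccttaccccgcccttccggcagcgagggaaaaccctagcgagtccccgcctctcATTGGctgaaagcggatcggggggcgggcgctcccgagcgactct
Dhcr7: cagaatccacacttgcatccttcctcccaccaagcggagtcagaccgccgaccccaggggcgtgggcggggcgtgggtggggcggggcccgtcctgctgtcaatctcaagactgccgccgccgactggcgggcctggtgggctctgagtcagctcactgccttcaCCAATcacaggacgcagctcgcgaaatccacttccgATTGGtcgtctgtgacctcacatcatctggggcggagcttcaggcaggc

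Idi1 encodes isopentenyl diphosphate isomerase, which balances the pair of isoprenoid building blocks. Its main probe (A_51_P329711) read 1.20, 1.51, 2.01 and 1.54 in wild type and 1.62, 1.82, 1.54 and 1.64 in VRK1-deficient testes. The wild type arrays enclosed the VRK1-deficient ones, from wild type replicate 1 at the bottom to replicate 3 at the top. The change was 0.09 (95% interval -0.30 to 0.47, limma adjusted p = 0.763), at 0.36 on slide 1 and -0.19 on slide 2. On the second probe (A_52_P441634) the levels were -2.78, -1.87, -1.53 and -1.71 against -2.84, -2.25, -2.47 and -2.60. There, only wild type replicate 1 lay among the VRK1-deficient arrays. The change of that probe was -0.57 (limma adjusted p = 0.186), and -0.84 without wild type replicate 1 (limma adjusted p = 0.00841). Both probes are placed on chromosome 2 of mm7 in the array files, whereas the RefSeq window of Idi1 is on chromosome 13 of GRCm38.p6.

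Fdps encodes farnesyl diphosphate synthase, whose product feeds both sterols and protein prenylation. Wild type arrays gave 2.82, 3.10, 3.48 and 3.10 on the main probe (A_51_P379798), and VRK1-deficient arrays gave 2.88, 3.22, 2.91 and 2.80. The genotypes overlapped over most of their range. The change was -0.17 with a standard error of 0.16 (limma adjusted p = 0.501), at 0.09 on slide 1 and -0.44 on slide 2, and -0.05 without wild type replicate 3.

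The second Fdps probe (A_52_P593965), designed on a separate cDNA (AK077979), had the largest difference of the 18. Its wild type levels were 0.06, -0.20, 0.41 and -0.17, and its VRK1-deficient levels were -1.01, -1.05, -1.13 and -0.17. VRK1-deficient replicates 1 to 3 were below every wild type array, and replicate 4 lay within the wild type range. The means were 0.02 ± 0.28 and -0.84 ± 0.45 (SD, n = 4), so the VRK1-deficient mean was 55.0% of the wild type mean. The change was -0.86 with a standard error of 0.23 (limma adjusted p = 0.0635), and the exact two-sided permutation p was 0.0571. By slide it was -0.95 and -0.77. Under 3 of 19 alternative settings it passed the threshold, 1 of them without wild type replicate 1 (-0.85, limma adjusted p = 0.0415). The others were no scaling and an intensity trend with robust variances. Of all tested probes, 7659, 916 and 1916 passed in these fits, in that order, against 986 in the main fit.

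Both Fdps probes are shown because they differed in size of change, with no base marked. The main probe lies on chromosome 3 of mm7 from 89208691 to 89208831, minus strand, and its 60 bases span 141 bases of genome, so it crosses a gap. The second lies at 89212905 to 89212964 of the same chromosome and strand with no gap, and its first 30 bases are given.
Fdps A_51_P379798: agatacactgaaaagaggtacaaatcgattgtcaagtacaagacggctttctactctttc
Fdps A_52_P593965: agggactgacaggtgggcacagagaatttt

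Fdft1 encodes squalene synthase, which commits isoprenoids to sterols. Its main probe (A_51_P485946) was at 2.60, 2.81, 2.12 and 2.73 in wild type and at 2.80, 2.90, 2.81 and 2.75 in VRK1-deficient testes. The VRK1-deficient arrays lay close together, and the wild type spread came mostly from replicate 3. The change was 0.25 (95% interval -0.10 to 0.60, limma adjusted p = 0.313), and 0.10 without wild type replicate 3. The second probe was near background, well above it on 3 wild type and 2 VRK1-deficient arrays, and changed by 0.42 (limma adjusted p = 0.402). The main probe is shown because its 60 bases span 4241 bases of chromosome 14 of mm7, from 58010811 to 58015051 on the minus strand, and so read a joined transcript.
Fdft1 A_51_P485946: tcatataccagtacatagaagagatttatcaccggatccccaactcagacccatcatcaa

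Sqle encodes squalene epoxidase, an oxygen-dependent and rate-limiting step, and had 1 probe (A_51_P450487). The levels were 2.79, 3.07, 2.92 and 2.95 on wild type arrays and 3.11, 3.12, 2.89 and 2.87 on VRK1-deficient arrays. On slide 1 both VRK1-deficient arrays were above the wild type arrays, and on slide 2 both were just below. The change of 0.07 had the narrowest interval of the main probes, -0.19 to 0.33 or 0.874- to 1.26-fold, with a limma adjusted p of 0.720.

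Lss encodes lanosterol synthase, which closes the sterol rings. On its main probe (A_51_P296487), wild type arrays read 0.14, 0.78, 0.37 and 0.77, and VRK1-deficient arrays read 0.03, 0.40, 0.22 and 0.12. Wild type replicate 1 and VRK1-deficient replicate 2 made the groups overlap. The change was -0.32 with a standard error of 0.17 (limma adjusted p = 0.238). The second probe on the transcript gave -0.33 (limma adjusted p = 0.324), and a probe on another cDNA (AK147680) gave 0.16 (limma adjusted p = 0.347).

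Cyp51 encodes the lanosterol demethylase, a cytochrome P450 whose product belongs to the meiosis-activating sterols. The main probe (A_52_P164161) was at -1.25, -1.11, -1.08 and -1.18 in wild type and at -0.85, -0.72, -1.16 and -0.97 in VRK1-deficient testes. VRK1-deficient replicate 3 alone lay within the wild type range. The change was 0.23 with a standard error of 0.12 (limma adjusted p = 0.242), and the other probes changed by 0.07 and 0.19, so all 3 probes of Cyp51 had the same sign. On slide 1 the main probe differed by 0.39 and on slide 2 by 0.07. The probe that spans a gap, on chromosome 5 of mm7 from 4098039 to 4098445 on the minus strand, is shown as the one that reads a joined transcript.
Cyp51 A_51_P485791: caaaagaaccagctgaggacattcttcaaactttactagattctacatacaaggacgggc

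Dhcr7 encodes the reductase of the last step, which turns 7-dehydrocholesterol into cholesterol. Its main probe (A_51_P290986) read 3.49, 3.58, 3.89 and 3.39 on wild type arrays and 3.38, 3.37, 3.04 and 3.21 on VRK1-deficient arrays. Every VRK1-deficient array was below every wild type array, and the nearest pair, wild type replicate 4 and VRK1-deficient replicate 1, were almost level. The means were 3.59 ± 0.21 and 3.25 ± 0.16 (SD, n = 4), a change of -0.34 with a standard error of 0.14, or 0.792-fold with a 95% interval of 0.634 to 0.988. The limma adjusted p was 0.157 and the exact two-sided permutation p was 0.0286. Of all tested probes, 7.31% had every VRK1-deficient array lower, and of the 18 probes 1 did. On slide 1 the change was -0.16 and on slide 2 it was -0.52, and the second probe gave -0.20 (limma adjusted p = 0.386).

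**Figure D2:**
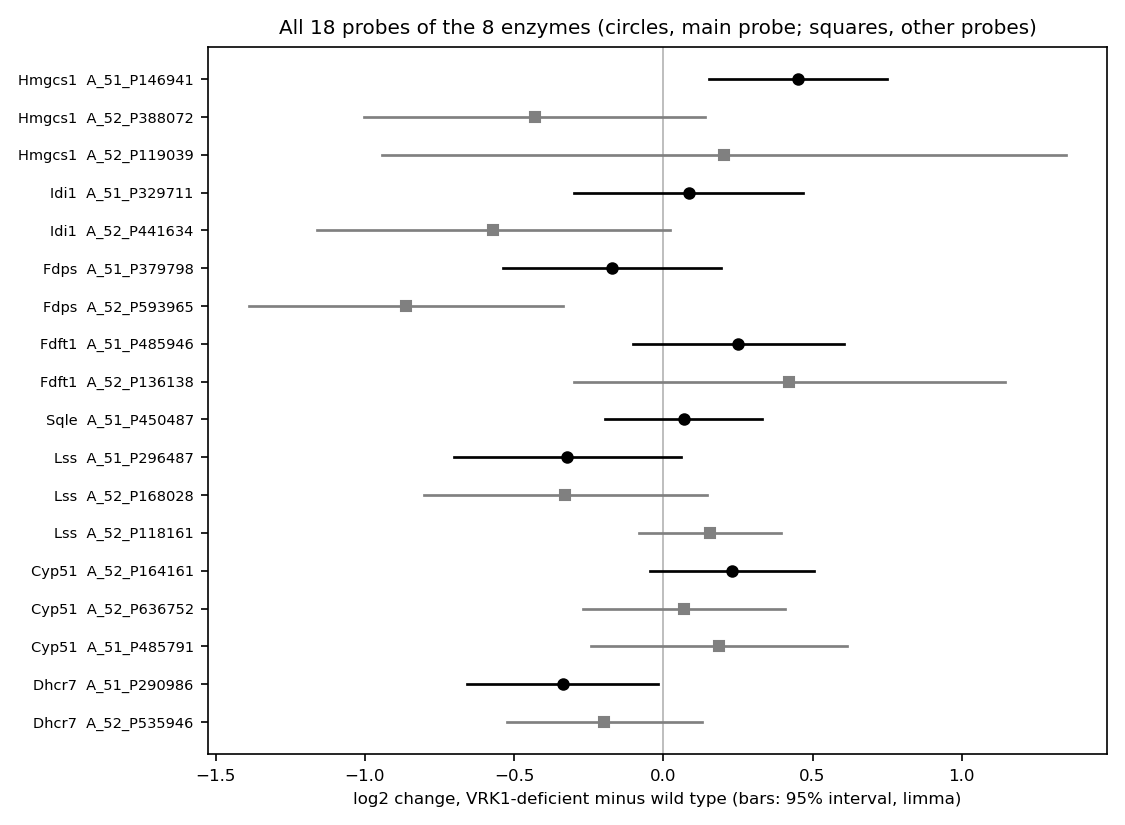
The log2 change, VRK1-deficient minus wild type, of each of the 18 probes with its 95% interval from limma (circles, main probe of the gene; squares, its other probes). The intervals of 3 probes exclude 0 before adjustment (Hmgcs1 A_51_P146941 at 0.45, Fdps A_52_P593965 at -0.86 and Dhcr7 A_51_P290986 at -0.34), and probes of Hmgcs1, Idi1 and Lss lie on both sides of 0.

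Probes of 1 gene were compared within arrays, as the level of each of the 10 other probes minus that of the main probe. For Idi1 the second probe relative to the main probe differed by -0.66 between genotypes, with no overlap (exact two-sided permutation p = 0.0286). For Lss the probe on AK147680 stood 0.48 higher relative to the main probe (exact two-sided permutation p = 0.0286). Adjusted over the 10 comparisons, both p-values from the exact permutation test were 0.143. For the second probe of Hmgcs1 the difference was -0.88 (exact permutation p = 0.143) and for that of Fdps it was -0.69 (exact permutation p = 0.114). The wild type SD of the Hmgcs1 difference was 0.77, against 0.17 in VRK1-deficient testes.

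Averaged over the 8 main probes, the wild type arrays were at 2.05, 2.26, 2.23 and 2.19, and the VRK1-deficient arrays at 2.21, 2.38, 2.12 and 2.14. The lowest array was wild type replicate 1, and the highest was VRK1-deficient replicate 2. The means were 2.18 ± 0.10 and 2.21 ± 0.12 (SD, n = 4), a difference of 0.03, at 0.14 on slide 1 and -0.08 on slide 2. The sign of the difference was thus not the same on both slides. VRK1-deficient replicate 2 was the highest of the 8 arrays for 4 of the 8 enzymes, and wild type replicate 1 was the lowest for 3.

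From array to array the enzymes were correlated in part. Over the 28 pairs of main probes, the correlation over 8 arrays ran from -0.76 to 0.77 with a median of 0.25, and 19 pairs were above 0. With the genotype means removed the median was 0.34. The tested genes most like the mean of the 8 enzymes over 8 arrays were Tpx2, a spindle assembly factor (r = 0.93), Ro60, an RNA-binding protein (0.90), Ssbp2 (0.89), Ovol2 (0.88) and Taf11, a subunit of the general transcription factor TFIID (0.88). The least like were the transcript ENSMUST00000100328 (r = -0.96), 1700052K11Rik (-0.96), A230062I15Rik (-0.95), the cDNA AK037804 (-0.94) and Nrip2 (-0.91). Within the sterol genes, Msmo1 had an r of 0.71 and ranked 114 of 17939 genes, Insig2 0.71 and 120, and Insig1 0.61 and 309. All points share arrays and scaling, and the correlations are given as descriptions.

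The rest of the chain and its surroundings were read from 6 lists of 56 genes, of which 54 were tested. Counts and medians of these lists are of main probes. With limma 0 of the 54 passed the threshold, against 734 of all 17950 tested genes by main probe (3.66% of all tested probes). An unadjusted limma p under 0.05 was found for 10, 4 higher and 6 lower, against 5313 of the 17950 (28.8% of all tested probes). Of the 13 other cholesterol enzymes, 8 were higher and 5 lower, with a median change of 0.13. The genotypes did not overlap for Msmo1 and Nsdhl, which remove methyl groups after CYP51, at 0.24 and 0.27 higher in VRK1-deficient testes (limma adjusted p = 0.219 and 0.180). Hsd17b7, the ketoreductase of the same steps, changed by -0.45 with no overlap on its main probe (limma adjusted p = 0.100). Its other probe gave -0.17 with overlap (limma adjusted p = 0.516), and the other probes of Nsdhl gave 0.07 to 0.29, all with overlap. Over the 54 genes the genotypes did not overlap for 5 higher and 2 lower. Of all 17950 tested genes by main probe, 1802 did not overlap and were higher, and 1367 were lower (9.39% and 7.31% of all tested probes).

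Of the 9 tested regulators of the chain, 4 were higher and 5 lower, 0 had an unadjusted limma p under 0.05, and the median change was -0.05. Srebf2, which encodes SREBP2, changed by -0.08 (limma adjusted p = 0.744), and Insig1, which holds SREBP2 in the endoplasmic reticulum and is a target of it, by -0.16 on its main probe (limma adjusted p = 0.612) and -0.60 on its other probe (limma adjusted p = 0.192). Of the 10 genes of uptake, transport and storage, 6 were higher and 4 lower, and the median change was 0.01. Npc2, a lysosomal carrier of cholesterol, was 0.12 higher with no overlap (limma adjusted p = 0.429).

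Isoprenoids and steroids are drawn from the chain and were read as separate lists. The 6 tested genes of the isoprenoid branch had a median change of -0.33, with 4 lower, and the seventh, Pdss2, was not well above background on any array. Fntb, a subunit of protein farnesyltransferase, changed by -0.53 with no overlap on its main probe (limma adjusted p = 0.0633), and by 0.38 with no overlap in the opposite direction on its other probe (limma adjusted p = 0.0738). Of the 10 genes of fatty acid synthesis, 5 were higher and 5 lower, with a median of 0.05. Among 6 tested genes of steroid synthesis, 4 were higher, with a median of 0.28, and Cyp19a1 was not well above background on any array. Hsd17b3, which makes testosterone, was at 2.99, 2.22, 0.92 and 1.47 in wild type and at 3.67, 3.28, 3.49 and 3.36 in VRK1-deficient testes. Its change of 1.55 (limma adjusted p = 0.0559) was the largest of the 62 genes tested in the 7 lists, and wild type replicate 1 was the nearest to the VRK1-deficient arrays. Under 7 of 19 alternative settings Hsd17b3 passed the threshold. Hsd3b6 was also higher on every VRK1-deficient array, by 0.60 (limma adjusted p = 0.0739).

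**Figure D3:**
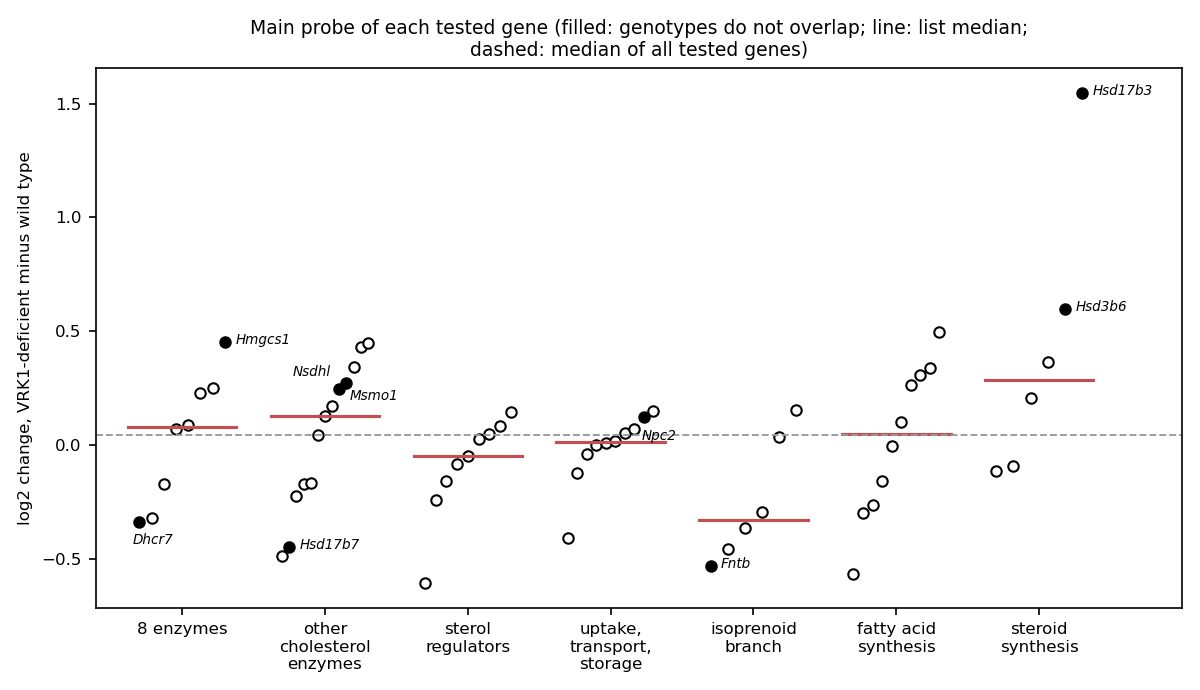
The log2 change, VRK1-deficient minus wild type, of the main probe of each tested gene in the 8 enzymes and the 6 surrounding lists (filled and named where the genotypes do not overlap; solid line, median of the list; dashed line, median of all tested genes at 0.04). The medians of the 8 enzymes, the other cholesterol enzymes, the regulators and the uptake genes lie between -0.05 and 0.13, those of the isoprenoid branch and steroid synthesis at -0.33 and 0.28, and Hsd17b3 stands at 1.55.

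Without wild type replicate 1, 28.4% of all tested probes passed the limma threshold. Of the 18 probes of the 8 enzymes, 4 passed, namely the main probe of Hmgcs1, higher, and the second probes of Hmgcs1, Idi1 and Fdps, lower. Of the 54 genes in the surrounding lists 14 passed, 6 higher and 8 lower. They included 4 of 6 in the isoprenoid branch, all lower, and 3 of 6 in steroid synthesis, all higher. In fatty acid synthesis 3 of 10 passed, of the other cholesterol enzymes 2 of 13, and of uptake, transport and storage 1 of 10. Of the 9 regulators 1 passed, Mbtps2, at -0.89 (limma adjusted p = 0.00799), and neither Srebf2 nor Insig1 did.

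Markers of the cell types of the testis moved with genotype beside these values. The 13 tested germ cell markers were all lower in VRK1-deficient testes, and 2 of them passed the limma threshold. Of all 17950 tested genes by main probe, 8087 were lower, and 734 passed, 396 of them lower. The mean of the germ cell markers was at 1.14, 2.08, 2.45 and 2.26 on wild type arrays and 0.51, 1.29, 1.15 and 0.74 on VRK1-deficient arrays. Wild type replicate 1 thus lay inside the VRK1-deficient range. The mean of the 12 Sertoli cell markers ranged from 2.66 to 3.36 in wild type and from 3.21 to 3.50 in VRK1-deficient testes, with 11 higher. For the 8 genes listed as Leydig cell markers the ranges were 1.01 to 1.64 and 1.44 to 1.87, with 6 higher. Of these 8, 5 are also in the steroid synthesis list. Hsd17b3, at 1.55, had the largest change of the 8, and Star and Cyp17a1 were lower, at -0.12 and -0.09. Whether Hsd17b3 marks Leydig cells at this age was not tested. The 5 endothelial markers were all higher, and their mean ranged from -1.23 to -1.07 in wild type and from -1.06 to -0.76 in VRK1-deficient testes. Of the 5 peritubular myoid markers 4 were lower, 1 of them, Cnn1, past the limma threshold (-0.99, limma adjusted p = 0.0446), and the mean ranged from 3.32 to 3.56 and from 3.07 to 3.55. The 6 tested macrophage markers were all higher by 0.04 to 0.14, and the 2 tested red blood cell markers were both lower. None of the 4 liver and adrenal markers with a probe (Alb, Apoa1, Cyp7a1 and Cyp21a1) was well above background on any array. Over 8 arrays, the r of the mean of the 8 enzymes with each germ cell marker ran from 0.10 (Dppa3) to 0.38 (Kit). With the genotype means removed it ran from 0.43 (Dppa3) to 0.94 (Sall4). For the Sertoli cell markers these ranges were -0.53 (Wt1) to 0.33 (Trf) and -0.72 (Wt1) to 0.42 (Trf). The part of these shifts in the levels of the 8 enzymes was not tested.

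**Figure D4:**
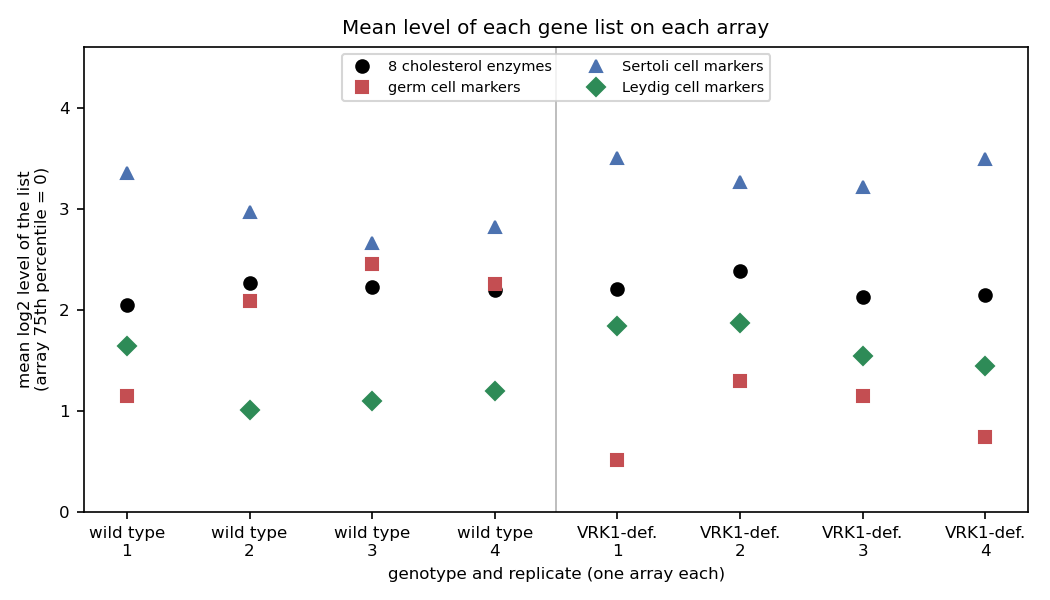
The mean log2 level of the 8 enzymes, and of the germ cell, Sertoli cell and Leydig cell markers, on each of the 8 arrays, relative to the 75th percentile of that array (positions of different lists on the axis cannot be compared). The mean of the 8 enzymes, which averages main probes with changes of opposite sign, ranges from 2.05 to 2.38. That of the germ cell markers ranges from 0.51 to 2.45, with wild type replicate 1 at 1.14 among the VRK1-deficient arrays.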

How the data were processed

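RNA of 4 wild type and 4 VRK1-deficient testes was labeled with Cy3. The authors scanned 1 array per sample and extracted it with Agilent Feature Extraction 9.5.3.1 (submitters' processing notes), and the deposited processed signals are linear intensity values with background subtracted and no scaling between arrays. Here outlier spots (58 to 134 per array) were left out, intensities were put on the log2 scale and each array was set to its own 75th percentile over non-control spots. Spots of 1 probe were averaged, and a probe was tested where 4 or more of the 8 arrays read it well above background. The comparison of genotypes was fitted in R 4.3.3 by limma 3.58.1, using lmFit and eBayes, over all 26962 tested probes, with Benjamini-Hochberg adjustment and a threshold of 0.05. Exact permutation tests used all 70 arrangements of 8 arrays. The script was tested on simulated data. Positions of probes come from the array files (build mm7), and a probe spanning more genome than its length was said to cross a gap. Symbols came from the accession for 22951 probes, from the symbol for 6659 and from a synonym for 3109, in a RefSeq table, and 8455 probes kept the array name. Precision is limited by the 4 arrays per group. The limma p-values weigh a change against the spread between arrays, which limma shares over probes. Exact permutation p-values rest on the arrangements of the arrays alone.

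The 8 enzymes and all gene lists were chosen with earlier results of these data known. The main probe of a gene was its brightest. Genes named are the 8 enzymes, the targeted Vrk1, Srebf2 and Insig1, those of the lists that passed the threshold or whose genotypes did not overlap, and the 5 most and 5 least like the mean of the 8. Alternatives were quantile normalization, no scaling, normexp with an offset of 50, other filters on dim probes, the mean of a gene's probes, slide and replicate number as blocks, each slide, each array left out, the methods' t-test, an intensity trend with robust variances, and the deposited value table, which held the same signals. Figures were drawn with matplotlib 3.10.9 in Python 3.11.15. Some genes that this rule names are not reported here.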

Additional observations from a re-analysis of the deposited data

Results flagged for a closer look

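In the VRK1-deficient group the main probe of Hmgcs1 was at 4.97 on replicate 2, away from 4.70 to 4.73 on the other 3 arrays, a gap of 0.895 of the range of the group. Of 18 groups examined in this way this was the only one past the critical value, and chance gives about 1 in 20. Without that array the VRK1-deficient levels still lay above the wild type levels of 4.11 to 4.59.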

How the results depend on the processing

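The number of the 8 main probes passing the limma threshold stayed at 0 with quantile normalization, no scaling, normexp, both other filters, each slide alone, slide as a block and probes averaged. It was 1, Hmgcs1, with an intensity trend and robust variances (adjusted p = 0.0451), where 1916 of all tested probes passed, against 986 in the main fit. The second Fdps probe passed with no scaling (adjusted p = 0.0321), with that trend (0.0473) and without wild type replicate 1 (0.0415). The number of main probes passing ranged from 0 to 1 with each array left out. The 1 came without wild type replicate 1, where 4 of the 18 probes passed and 28.4% of all tested probes did. By the methods' t-test it was 2 unadjusted, against 26.2% of all tested probes, and 0 after Benjamini-Hochberg. By the exact permutation test it was 2, Hmgcs1 and Dhcr7. With 4 against 4 arrays an exact p under 0.05 is the same as no overlap. Of all tested probes, 9.39% had no overlap with VRK1-deficient arrays higher and 7.31% with them lower. By main probe these were 1802 and 1367 of 17950 tested genes. The difference of the mean of the 8 was -0.147 with no scaling (the median change of all tested probes was -0.14 there, against 0.04), 0.142 on slide 1, -0.0778 on slide 2, and -0.0246 to 0.0629 with each array left out. Of the surrounding genes 1, Hsd17b3, passed with normexp (limma adjusted p = 0.0273), a filter on all 8 arrays (0.0463), slide as a block (0.0489), slide 2 alone (0.0354) and the intensity trend (0.0386). Of all tested probes 1414, 1389, 641, 1059 and 1916 passed in these fits, in that order, against 986 in the main fit. With each array left out 0 to 14 surrounding genes passed, the 14 without wild type replicate 1.

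Signs turned for Idi1 with no scaling (-0.0940), on slide 2 (-0.190), without wild type replicate 1 (-0.0369) and with probes averaged (-0.242), for Sqle with no scaling (-0.111) and on slide 2 (-0.0503), and for Fdps on slide 1 (0.0912). The cause was not tested. With each array left out, Idi1 ranged from -0.0369 to 0.233. Hmgcs1, Fdft1, Lss, Cyp51 and Dhcr7 kept their sign under all 21 settings. The deviations of same-numbered samples correlated at 0.47, 0.07, 0.19 and -0.14 for replicates 1 to 4. Wild type replicates 1 to 3 correlated best with their own number and replicate 4 with number 3. As 2 of these values are under 0.1, the samples were not treated as pairs. With the replicate block 0 of the 8 main probes passed (Hmgcs1 adjusted p = 0.0834), and the mean differed by 0.03. There 1 surrounding gene, Hsd17b3, passed (limma adjusted p = 0.0362), and 2280 probes passed in all against 986.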
